A study of Homo sapiens with 6 samples.

Results

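The 2 arrays of MDA-MB-231 cells transfected with siATM were compared directly with the 2 arrays of the same cells transfected with sip53, and these 4 arrays are part of 6 in all. MDA-MB-231 is a triple-negative human breast cancer line of mesenchymal character that carries a mutant p53. The cells grew in DMEM with serum and antibiotics and received the siRNAs with the lipid reagent Lipofectamine RNAiMAX. The remaining 2 arrays hold cells given the control siRNA siNC and served as a reference for where siATM and sip53 moved a gene to opposite sides. Column-purified total RNA was turned into biotin-labelled cDNA and hybridised to the Affymetrix Human Gene 2.0 ST array, which reads whole transcripts with many probes per gene. The siRNA sequences, doses and times after transfection are not given in the sources used here. Each group is a pair of numbered samples of 1 cell line, and the labels do not say that they came from separate cultures. The p-values rest on the spread within these pairs, and that spread may be purely technical.

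ATM is a protein kinase that is switched on by breaks in DNA and phosphorylates checkpoint and repair proteins. The transcription factor p53 is among its substrates, and in many cells ATM signals to the cell cycle and to cell death through p53. Mutant p53 proteins of breast cancer lines do not bind the usual p53 target genes well, yet they can still associate with other transcription factors. The direct comparison asks which genes differ when the kinase or the transcription factor is targeted in the same cells.

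All values are on the log2 scale as the authors deposited them, so a difference of 1 is a 2-fold change. Probe sets without a single gene symbol were left out. The 14884 genes with a symbol were each read from 1 probe set, the one with the highest mean over the 6 arrays, and the 10640 genes with a mean at or above 5.96, the median over all probe sets, were tested. Array medians lay between 5.95 and 5.98. Over the tested genes, the SD of the difference between the 2 arrays of a group was 0.148 for siATM and 0.115 for sip53. Between an siATM and a sip53 array it was 0.277 to 0.291. Markers of mesenchymal breast lines were bright on all arrays, with VIM at 11.6 to 11.7, AXL at 12.6 to 12.7 and EGFR at 10.6 to 10.8. The luminal markers ESR1, PGR and FOXA1 stayed below the level for testing. Against that pattern, the luminal factor GATA3 read 8.06 to 8.77, and EPCAM, KRT18 and KRT19 were also above that level.

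Of the 10640 genes tested, 3219 (30.3%) differed between siATM and sip53 at an adjusted p below 0.05, the threshold for a call throughout (limma on all 6 arrays, Benjamini-Hochberg adjustment). With siATM 1487 genes (14.0%) were higher and 1732 (16.3%) were lower. The percentages given below for lists are shares of their tested members and are to be read beside these 2. Setting the medians of the tested genes equal on all arrays turned the balance, to 1669 higher and 1558 lower, so an excess in either direction depends on the scaling. The differences were mostly small, with a median size of 0.35 among called genes. At least 1.5-fold differences were called for 198 genes higher and 306 genes lower with siATM (226 and 266 with that centring), and at least 2-fold differences for 20 and 34. In all 3219 called genes the siATM arrays did not overlap the sip53 arrays, which was also true of 65.4% of all tested genes. Leaving out an array of sip53 lowered the count of calls to 1847 (replicate 1) or 1887 (replicate 2), and 1475 of the 3219 genes were called whichever of the 6 arrays was left out.

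**Figure D1:**
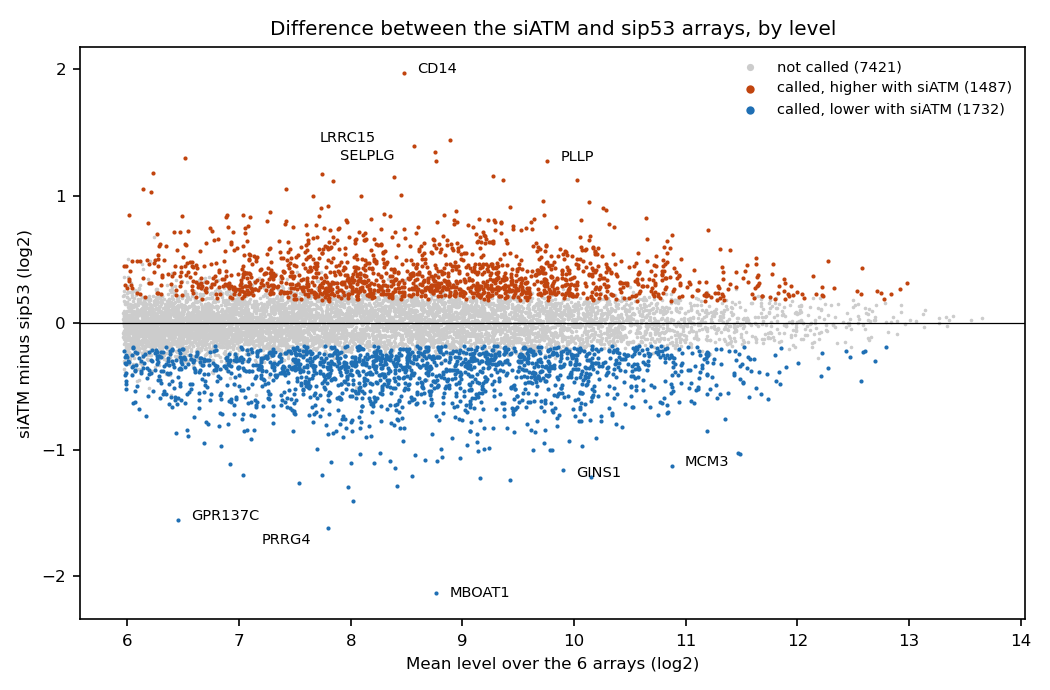
Difference between the mean of the 2 siATM arrays and the mean of the 2 sip53 arrays (vertical axis, log2) against the mean level over all 6 arrays (horizontal axis, log2) for the 10640 tested genes. Each point is a gene, grey where it was not called. The largest differences in each direction, CD14 and MBOAT1, stand apart from the other called genes, whose median size is 0.35.

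The genes that copy DNA were lower with siATM than with sip53 throughout the list. All 26 replication genes that the annotation named passed the filter on dim genes, and all 26 were called lower, against 16.3% of tested genes. Their median difference was -0.60, beside -0.01 for all tested genes. Relative to siNC the median was -0.46 with siATM and 0.20 with sip53. Against siNC, 21 genes were called lower with siATM against siNC while 7 were called higher with sip53 (in all, 25.5% of tested genes were called in the siATM comparison with siNC and 10.6% in that of sip53). In bulk RNA, a different share of cells in S phase and a different amount of transcript per cell cannot be told apart.

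MCM2 to MCM7 form the ring that unwinds DNA at the replication fork, and all 6 subunits were lower with siATM. MCM3 read 10.15 and 10.12 with siATM, 11.28 and 11.25 with sip53, and 11.23 and 11.21 with siNC. It was 2.19-fold lower with siATM than with sip53 (log2 difference -1.13, SE 0.05, adjusted p = 9.77e-05), the sip53 arrays lying next to the siNC arrays. The other subunits differed by less, from -0.58 for MCM4 through -0.56 for MCM5 and for MCM7 and -0.43 for MCM6 to -0.35 for MCM2. MCM10, which helps to start the helicase, read 8.22 and 8.52 with siATM, 9.51 and 9.36 with sip53, and 9.13 and 9.16 with siNC. The siATM arrays lay apart from each other for this gene, yet both lay below every other array.

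The GINS complex binds the MCM ring and CDC45 to make the active helicase. GINS1 read 9.32 and 9.21 with siATM, 10.40 and 10.45 with sip53, and 10.03 and 9.98 with siNC. It was 2.23-fold lower with siATM than with sip53 (adjusted p = 0.000123), with the siNC arrays between the groups. GINS4 was placed in the same way, at 8.85 and 8.92 with siATM, 9.74 and 9.69 with sip53, and 9.19 and 9.25 with siNC. For GINS2 and CDC45 the sip53 and siNC arrays lay close together, and the differences between siATM and sip53 were -0.82 and -0.68. GINS3 differed by -0.34, and its call was lost without sip53 replicate 1 (adjusted p = 0.0536).

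Proteins that travel with the fork moved in the same direction. DSCC1, part of a loader of the sliding clamp, read 7.76 and 7.50 with siATM, 8.76 and 8.70 with sip53, and 8.25 and 8.30 with siNC, a 2.15-fold difference between siATM and sip53 (adjusted p = 0.000376). WDHD1, which ties the helicase to the primase, read 9.54 and 9.42 with siATM, 10.43 and 10.40 with sip53, and 10.03 and 9.89 with siNC. In both genes siATM lay below and sip53 above the siNC arrays. CLSPN, which carries the checkpoint signal from a stalled fork, differed by -0.90, and PCNA, the sliding clamp, by -0.73. The licensing factor CDT1 showed the smallest difference of the list, -0.22, and its call was lost whichever array was left out, with an adjusted p of up to 0.22. CDC6 (-0.57) was no longer called without siATM replicate 2 or either sip53 array (adjusted p up to 0.133), and TICRR (-0.31) without either siATM array or sip53 replicate 1 (up to 0.166). RECQL4 (-0.35) lost its call without sip53 replicate 2 (adjusted p = 0.0656). The other 21 replication genes were called in every such fit, and the count was 22 to 25.

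E2F transcription factors control many replication genes. Promoters were read from RefSeq (GRCh38.p14) as the 300 bases from 250 before to 50 after each gene's start, and 20 of the 26 replication genes were found there. E2F-type letters (TTGGCGC, or its variant TTCGCGC, or its variant TTCCCGC, on either strand) stood in 15 of these 20 promoters, or 75%, beside 16.6% of the 8223 tested genes found and 11.1% of all 27305 promoters in the table. The 150 bases before the start of 3 genes with a match there are printed to show where these letters lie. The choice went by the size of the difference but passed over the genes of a single chromosome, so it is not a strict ranking. The letters run 5′ to 3′ on the gene's own strand, with the matches in capitals (GCGGGAA is TTCCCGC read from the other strand).
MCM3 (chr6:52284743-52284892, minus strand): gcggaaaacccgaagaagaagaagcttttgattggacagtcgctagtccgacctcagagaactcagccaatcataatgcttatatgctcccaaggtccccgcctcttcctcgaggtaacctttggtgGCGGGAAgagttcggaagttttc
GINS2 (chr16:85688955-85689104, minus strand): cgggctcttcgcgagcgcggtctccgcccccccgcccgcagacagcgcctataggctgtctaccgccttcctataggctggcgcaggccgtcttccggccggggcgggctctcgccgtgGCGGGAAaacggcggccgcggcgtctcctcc
PCNA (chr20:5126623-5126772, minus strand): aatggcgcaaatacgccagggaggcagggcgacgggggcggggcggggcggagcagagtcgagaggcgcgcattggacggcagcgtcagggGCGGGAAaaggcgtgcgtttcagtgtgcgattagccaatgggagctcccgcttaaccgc
The capitals begin at -23 in MCM3, -31 in GINS2 and -59 in PCNA, counted from the start site. A match describes the letters and not binding. All 26 replication genes were called lower, so their share cannot be set beside that of members not called. Whether the letters go with the difference between siATM and sip53 was not tested.

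Enzymes that make the building blocks of DNA followed in part. All 23 named genes of nucleotide synthesis passed the filter, 13 (56.5%) were called lower with siATM, none higher, and the median difference was -0.23. RRM2, the regulated subunit of ribonucleotide reductase, read 9.67 and 9.57 with siATM, 10.37 and 10.42 with sip53, and 10.16 and 10.07 with siNC (1.71-fold, adjusted p = 0.000408). Its partner RRM1 differed by -0.07 and was not called. PPAT, which starts purine synthesis, read 8.66 and 8.53, 9.33 and 9.38, and 8.98 and 8.95 in the same order of groups (1.69-fold, adjusted p = 0.000415). CTPS1, which makes CTP, differed by -0.74 and SAMHD1, which degrades deoxynucleotides, by -0.66. For PPAT and CTPS1 the siNC arrays lay between the siATM and the sip53 arrays. The count of genes lower was 9 to 13 when 1 array was left out, and DCK, GMPS, ADSL and PFAS were the genes whose calls were lost, their highest adjusted p lying between 0.0677 (GMPS) and 0.253 (PFAS).

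**Figure D2:**
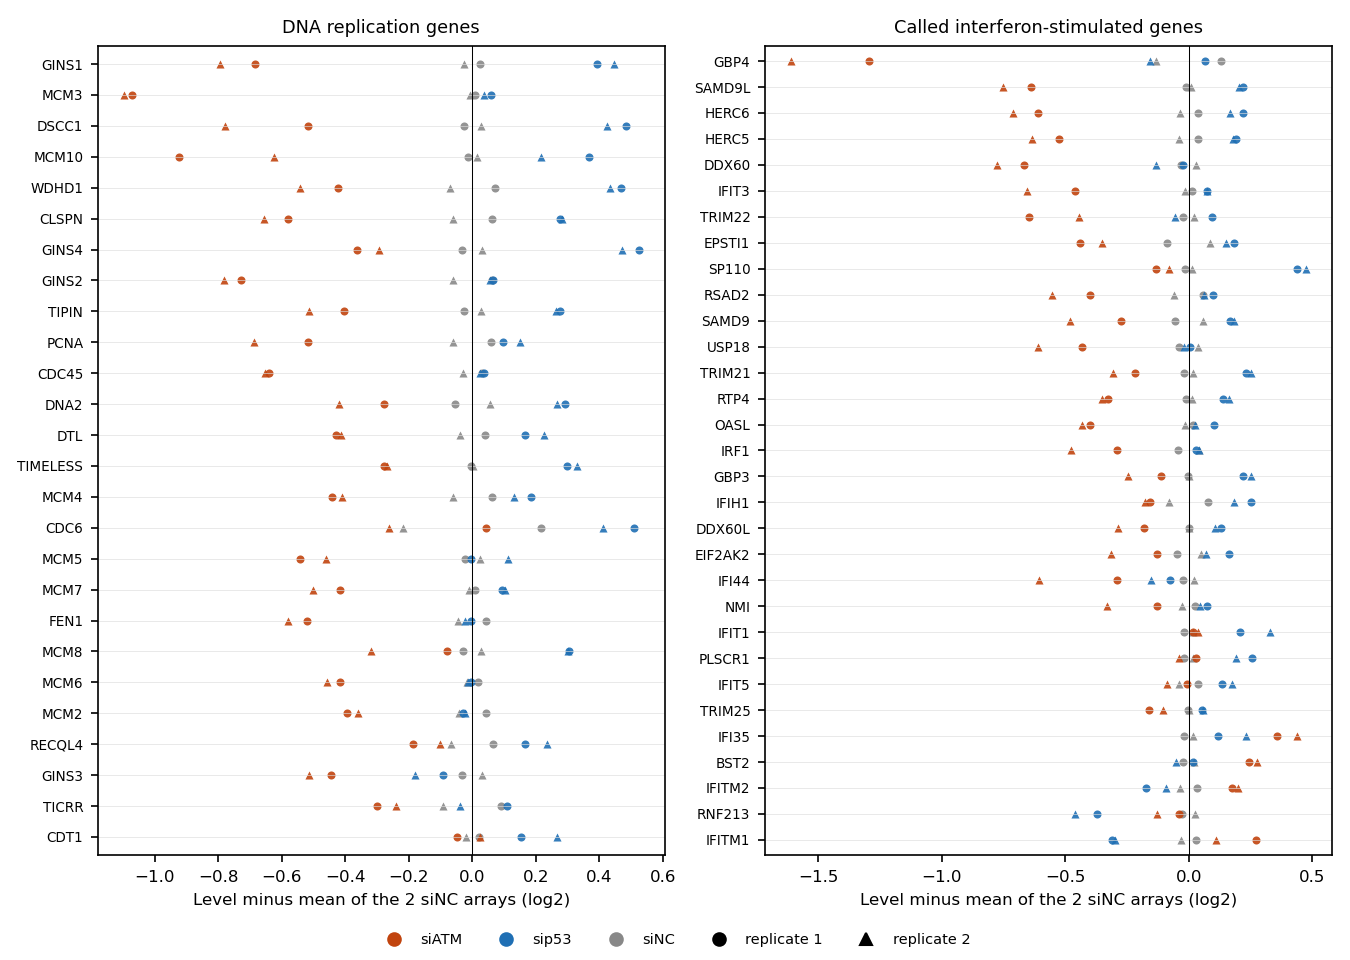
Level on each array minus the mean of the 2 siNC arrays (horizontal axis, log2) for the 26 replication genes (left) and the 31 called interferon-stimulated genes (right), ordered by the difference between siATM and sip53. Colours mark the siRNA and shapes the replicate. All 26 replication genes have their siATM arrays left of their sip53 arrays, and in the right panel the 5 genes at the bottom have them on the right.

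Genes of mitosis were also lower with siATM than with sip53, and here sip53 stayed near siNC. All 64 named genes of mitosis and the kinetochore passed the filter, and 55 (85.9%) were called lower with siATM, none higher. The median difference was -0.50. Relative to siNC the medians were -0.54 with siATM and -0.05 with sip53. The kinase NEK2, which separates centrosomes, read 8.96 and 8.90 with siATM, 9.95 and 9.93 with sip53, and 10.01 and 10.06 with siNC (2.01-fold lower with siATM than with sip53, adjusted p = 0.000146). SKA1, which holds kinetochores on microtubules, read 9.25 and 9.06 with siATM, 10.12 and 10.19 with sip53, and 10.10 and 10.12 with siNC. In both genes the sip53 arrays lay beside the siNC arrays, and the siATM arrays lay apart. PTTG1, the securin that guards sister chromatids, differed by -0.85 (7.33 and 7.11 with siATM, 8.08 and 8.06 with sip53, 8.27 and 8.36 with siNC) and CENPK, a kinetochore subunit, by -0.86.

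Regulators with broad roles in mitosis moved less than these. FOXM1, a transcription factor of mitotic genes, was 1.64-fold lower with siATM, at 9.92 and 9.91 against 10.59 and 10.67 with sip53 and 10.49 and 10.47 with siNC. CDK1 (-0.66), its partners CCNB2 (-0.52) and CCNA2 (-0.56), the checkpoint kinases BUB1 (-0.62) and BUB1B (-0.62), and the kinases PLK1 (-0.42) and AURKB (-0.46) were called lower. The proliferation marker MKI67 differed by -0.43. The 9 genes that were not called were AURKA, PLK4, BIRC5, CENPA, KIF11, BUB3, OIP5, CENPN and CDC25B. Among these KIF11, BUB3, CENPA, OIP5, CENPN and CDC25B were themselves called lower with sip53 than with siNC, from -0.29 for CDC25B to -0.55 for CENPN. The count of genes lower was 48 to 55 when 1 array was left out, and 48 of the 55 genes were called in every such fit. The genes whose calls were lost were KIF18A, ECT2, CCNB1, INCENP, SMC4, KIF20B and TOP2A.

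Many mitotic promoters hold the letters TTTGAA, the core of the element CHR, near the start. TTTGAA (either strand) was found in 30 of 49 promoters of the called mitotic genes, or 61.2%, beside 9.8% of tested genes found and 15.5% of all promoters in the table. CCAAT (either strand) was in 73.5% of them, beside 36.3% and 35.8%, and it was also in promoters of replication genes (14 of 20, or 70%) and of lower sterol genes (5 of 7, or 71.4%). No promoter of the 20 replication genes held TTTGAA, while 14 of the 49 mitotic promoters held the E2F-type letters. For comparison with the replication genes, the 150 bases before the start of 3 mitotic genes follow, with TTTGAA in capitals. PRC1 and KIF4A bundle and carry the microtubules of the central spindle, and BUB1B delays the separation of chromosomes.
KIF4A (chrX:70289954-70290103, plus strand): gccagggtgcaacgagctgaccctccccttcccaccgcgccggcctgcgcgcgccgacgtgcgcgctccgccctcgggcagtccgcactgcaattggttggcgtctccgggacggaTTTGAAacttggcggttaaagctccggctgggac
PRC1 (chr15:90994536-90994685, minus strand): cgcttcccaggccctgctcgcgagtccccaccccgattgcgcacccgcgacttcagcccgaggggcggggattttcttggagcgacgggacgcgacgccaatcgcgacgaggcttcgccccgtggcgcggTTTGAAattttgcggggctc
BUB1B (chr15:40160919-40161068, plus strand): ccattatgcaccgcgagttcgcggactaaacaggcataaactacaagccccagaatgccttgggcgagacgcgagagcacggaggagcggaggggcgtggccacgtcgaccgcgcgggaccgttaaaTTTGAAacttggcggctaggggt
KIF4A differed by -0.77, PRC1 by -0.65 and BUB1B by -0.62 between siATM and sip53. Mitotic genes that were not called were not searched apart, so whether the letters go with this difference was not tested.

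Cyclins, their kinases and E2F factors drive entry into S phase. Of 26 named genes 25 passed the filter, 11 (44.0%) were called lower with siATM, none higher, and the median difference was -0.18. CCNE2, a cyclin of S-phase entry, read 8.36 and 8.25 with siATM, 9.16 and 9.19 with sip53, and 8.68 and 8.70 with siNC, a 1.83-fold difference between siATM and sip53 (adjusted p = 0.000269). It lay below siNC with siATM by 0.39 and above it with sip53 by 0.49, both called, and it was called on opposite sides whichever array was left out. CDK6, the kinase of the D-type cyclins, read 9.37 and 9.15 with siATM, 9.91 and 9.95 with sip53, and 9.95 and 9.92 with siNC. Among E2F factors, the repressors E2F8 (-0.73) and E2F7 (-0.64) were called in every such fit, and E2F1 (-0.23) was called but not without siATM replicate 1, sip53 replicate 1 or sip53 replicate 2 (adjusted p = 0.135 at most). CCND1 differed by -0.56, while CDK4, CCND2 and RB1 differed by -0.07, 0.04 and -0.01 and were not called. The count was 10 to 11 when 1 array was left out.

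DNA repair genes differed in both directions, most of them lower with siATM. Of 39 named genes, all of which passed the filter, 18 (46.2%) were called lower with siATM and 2 (5.13%) higher. The median difference was -0.25. Lower genes included USP1, which deubiquitinates proteins of the Fanconi pathway (9.88 and 9.75 with siATM, 10.63 and 10.55 with sip53, 10.27 and 10.35 with siNC, 1.71-fold, adjusted p = 0.000472). RAD54B, a motor protein of homologous recombination, read 8.12 and 8.06, 8.79 and 8.89, and 8.47 and 8.44 in that order, with siNC between the groups. The nuclease EXO1 (-0.74), BARD1 (-0.65), the helicase BRIP1 (-0.62), the checkpoint kinase CHEK1 (-0.62) and NBN (-0.63), which senses breaks together with MRE11 and RAD50, were also lower. MRE11 and RAD50 themselves differed by -0.03 and 0.06, and the ATM-related kinase ATR by 0.02, none of them called. NEIL1, a glycosylase of base excision repair, was higher with siATM, at 8.10 and 8.24 against 7.51 and 7.66 with sip53 and 8.05 and 8.13 with siNC, so the sip53 arrays stood apart. RAD52 (0.32) was the other higher gene and lost its call without sip53 replicate 1 (adjusted p = 0.0783), which left 1 gene higher. The count of lower genes was 16 to 20.

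Interferon-stimulated genes formed another group that was lower with siATM. Interferons switch on antiviral genes through the factors STAT and IRF, and DNA that leaks into the cytoplasm can do so as well. Of 46 named genes 45 passed the filter, and 26 (57.8%) were called lower with siATM than with sip53 and 5 (11.1%) higher. The median difference was -0.28. Relative to siNC the medians were -0.13 with siATM and 0.06 with sip53. The GTPase GBP4 read 7.23 and 6.91 with siATM, 8.59 and 8.37 with sip53, and 8.66 and 8.39 with siNC, which is 2.65-fold lower with siATM than with sip53 (log2 difference -1.41, SE 0.13, adjusted p = 0.000564). SAMD9L, an antiviral and growth-restraining protein, read 9.72 and 9.60 with siATM, 10.57 and 10.56 with sip53, and 10.35 and 10.36 with siNC. HERC5, the ligase that attaches ISG15, read 8.60 and 8.49 with siATM, 9.31 and 9.30 with sip53, and 9.16 and 9.09 with siNC. In all 3 genes both siATM arrays lay below the other 4 arrays.

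HERC6, a relative of HERC5, differed by -0.85, the helicase-like DDX60 by -0.64, and IFIT3, which binds viral RNA complexes, by -0.63. SP110 (-0.56) was instead set apart by sip53, at 7.60 and 7.64 against 7.03 and 7.08 with siATM and 7.15 and 7.18 with siNC. Several well-known members showed little difference, with ISG15 at -0.03, IRF9 at -0.02 and IFITM3 at 0.05, none of them called. The 5 higher genes were IFITM1 (0.49), RNF213 (0.33), IFITM2 (0.32), BST2 (0.28) and IFI35 (0.22). IFITM1, which blocks the entry of viruses, read 11.10 and 10.94 with siATM, 10.52 and 10.53 with sip53, and 10.86 and 10.80 with siNC. Only IFITM1 among these 5 was called in every fit that left out 1 array, and the count of higher genes was 3 and 2 without replicates 1 and 2 of sip53. The count of lower genes was 19 to 26, and 19 of the 26 were called in every such fit.

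The interferon-response element of such promoters has the letters GAAANNGAAA. They were found on either strand in 17 of the 23 promoters of lower interferon-stimulated genes in the RefSeq table, or 73.9%, beside 2.59% of tested genes found and 3.67% of all promoters in the table. The promoters of 2 of these genes are printed to show how the letters repeat within a short stretch, with the matches in capitals (TTTCNNTTTC is the same element read from the other strand).
HERC5 (chr4:88456969-88457118, plus strand): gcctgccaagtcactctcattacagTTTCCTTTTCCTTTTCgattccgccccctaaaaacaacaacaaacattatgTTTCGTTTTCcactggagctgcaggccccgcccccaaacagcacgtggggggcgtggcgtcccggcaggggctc
DDX60 (chr4:168318753-168318902, minus strand): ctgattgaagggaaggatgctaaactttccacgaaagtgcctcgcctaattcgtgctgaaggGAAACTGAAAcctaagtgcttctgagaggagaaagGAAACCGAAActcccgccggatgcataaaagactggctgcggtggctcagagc
HERC5 holds 3 matches in this stretch, of which 2 overlap, and DDX60 holds 2. Members of the list that were not called lower were not searched apart. Whether the letters go with the difference between siATM and sip53, rather than with the list as such, was not tested.

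Surface proteins that restrain or engage immune cells differed beside them. Of 16 named genes of antigen presentation and immune checkpoints 15 passed the filter, 6 (40.0%) were called lower with siATM and 1 (6.67%) higher. PDCD1LG2, the checkpoint ligand PD-L2, read 7.66 and 7.50 with siATM, 8.75 and 8.70 with sip53, and 8.83 and 8.91 with siNC, 2.22-fold lower with siATM than with sip53 (adjusted p = 0.000231). CD274, the ligand PD-L1, read 7.57 and 7.19 with siATM, 8.09 and 8.03 with sip53, and 7.70 and 7.89 with siNC (1.6-fold, adjusted p = 0.00619). Its higher siATM array lay close to the siNC arrays. MICB, a stress ligand of natural killer cells, and TAPBPL, which edits the peptides of class I molecules, were instead higher with sip53 than with both other siRNAs. MICB read 12.06 and 12.13 with sip53 against 11.48 and 11.51 with siATM and 11.66 and 11.59 with siNC. B2M and TAPBP, core parts of class I presentation, differed by -0.04 and -0.03 and were not called. The single higher gene, CD276 (0.28), lost its call without sip53 replicate 2 (adjusted p = 0.092), and the count of higher genes was 2 without siATM replicate 2.

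Among the genes highest with siATM relative to sip53 were 3 surface proteins of blood cells. CD14, a coreceptor for bacterial lipopolysaccharide, read 9.57 and 9.49 with siATM, 7.72 and 7.41 with sip53, and 8.35 and 8.33 with siNC. It was 3.92-fold higher with siATM than with sip53 (log2 difference 1.97, SE 0.10, adjusted p = 9.77e-05), the largest increase of all called genes, and both siNC arrays lay in the gap. SELPLG, the ligand of P-selectin, read 9.55 and 9.54 with siATM, 8.26 and 8.14 with sip53, and 8.51 and 8.52 with siNC. CD22, a lectin of B cells, read 9.0 and 8.99 with siATM, 7.83 and 7.86 with sip53, and 8.31 and 8.32 with siNC. Because of these 3 genes the whole list of blood-cell markers was read. Of 13 named markers 12 passed the filter, 5 (41.7%) were called higher with siATM and 2 (16.7%) lower, the latter 1 whichever array was left out. The markers' summed linear level was 7317 to 7451 with siATM, 5291 to 5380 with sip53 and 5822 to 6154 with siNC. CD68 made up 58.7% to 67.4% of each sum, and it differed by 0.29, a call lost without sip53 replicate 1 or siATM replicate 2 (adjusted p up to 0.0861). Without CD68, CD14, SELPLG and CD22 the other 9 markers summed to 1000 to 1074 with siATM, 1058 to 1071 with sip53 and 1058 to 1078 with siNC. These ranges overlapped, but the sum leaves out the 3 genes that prompted it and mixes directions. Its 9 markers hold LYZ, called higher with siATM (0.53, adjusted p = 0.000785) in every fit that left out 1 array. They also hold the 2 genes called lower, CD4 and SPI1. Of endothelial and fibroblast markers 8 of 11 named passed the filter, and 3 (37.5%) were called lower with siATM: ESAM (-0.77), KDR (-0.53) and PECAM1 (-0.48). Their list summed to 1663 to 1720 with siATM, 2219 to 2405 with sip53 and 2164 to 2248 with siNC. ESAM, the brightest of these markers, read 9.60 and 9.67 with siATM, 10.33 and 10.48 with sip53, and 10.34 and 10.43 with siNC. It weighs most in these sums, so they do not show a fall of the whole list. The fibroblast marker LUM read 7.97 and 8.15 with siATM, above its 7.45 and 7.31 with siNC. KDR lost its call without siATM replicate 2 (adjusted p = 0.051) and PECAM1 without sip53 replicate 1 (adjusted p = 0.0549). CD163, a macrophage marker, was below the level for testing, and PTPRC and CD3E, which define blood cells, are not named in the annotation used. The part of other cells in these differences was not tested.

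A second set among the highest genes was placed mainly by siATM. LRRC15, a membrane protein of stromal and mesenchymal tumour cells that is also in the mesenchymal list, read 9.43 and 9.51 with siATM, 8.08 and 8.07 with sip53, and 8.17 and 8.13 with siNC (2.63-fold, adjusted p = 9.77e-05). DSEL, which modifies dermatan sulfate, read 9.67 and 9.65 with siATM, 8.40 and 8.38 with sip53, and 8.19 and 8.30 with siNC. CPA4, a secreted carboxypeptidase, read 10.11 and 10.11 with siATM, 8.94 and 9.02 with sip53, and 9.01 and 8.99 with siNC. In these genes the sip53 arrays lay near the siNC arrays and the siATM arrays far above. SESN3, a stress-induced regulator of mTOR signalling (1.30), and the tetraspanin TSPAN8 (1.06) followed the same order. For TSPAN8 the siATM arrays read 7.07 and 6.78, and the gene fell below the level for testing without siATM replicate 1. SCG2, a protein of secretory granules, differed by 1.06, and relative to siNC it moved by 0.74 with siATM and -0.32 with sip53. HSD17B3, an enzyme of androgen synthesis, read 6.97 and 6.85 with siATM, 5.67 and 5.80 with sip53, and 6.0 and 6.09 with siNC, was also called lower with sip53 than with siNC (-0.31), and passed the filter only through the siATM arrays.

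A further set was placed by sip53. SLFN5, a member of the interferon-responsive schlafen family, read 9.75 and 9.66 with siATM, 8.62 and 8.46 with sip53, and 9.66 and 9.48 with siNC (2.23-fold higher with siATM than with sip53, adjusted p = 0.000313). KYNU, an enzyme of tryptophan breakdown, read 6.53 and 6.52 with siATM, 5.61 and 5.38 with sip53, and 6.55 and 6.69 with siNC. In both genes the siATM and siNC arrays lay close together, and the sip53 arrays lay below both. The sip53 values of KYNU are below the level for testing, so this gene passed the filter only through the other arrays.

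**Figure D3:**
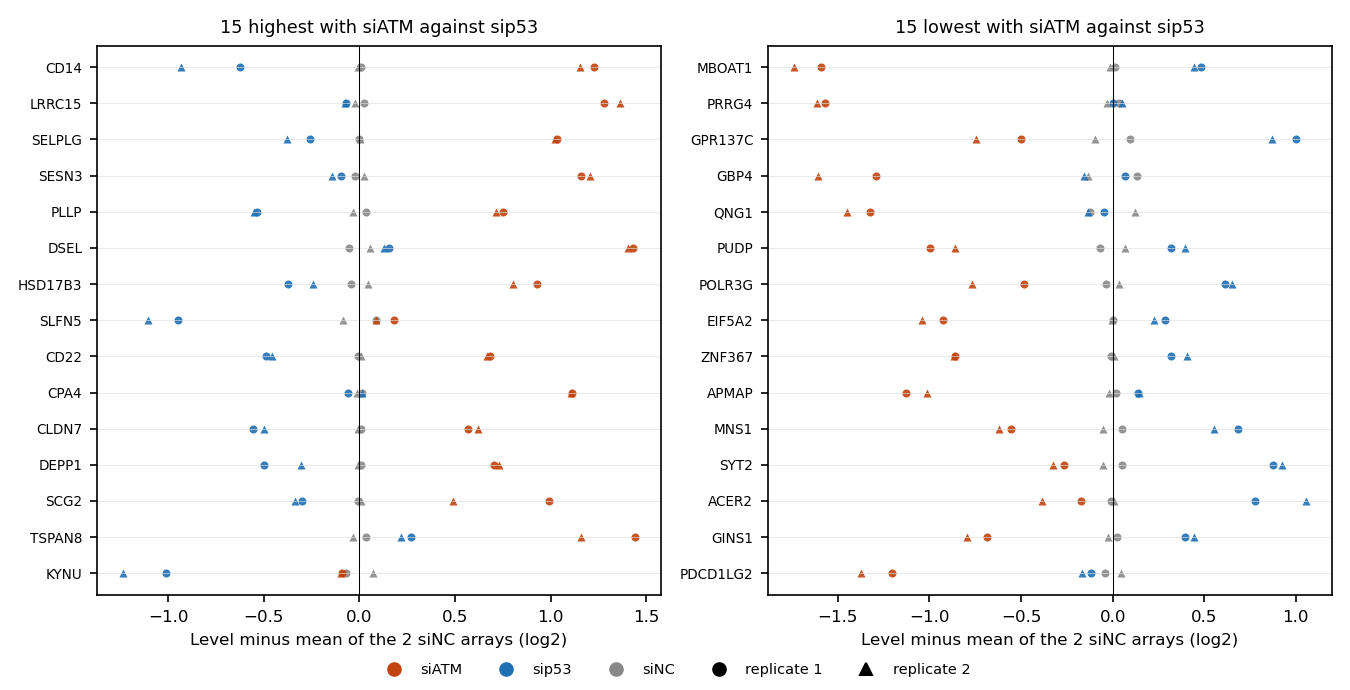
Level on each array minus the mean of the 2 siNC arrays (horizontal axis, log2) for the 15 genes highest (left) and the 15 lowest (right) with siATM relative to sip53. Colours mark the siRNA and shapes the replicate. The grey siNC points sit between the orange siATM and blue sip53 points in genes such as CD14, PLLP, MBOAT1 and GINS1, and beside the blue points in LRRC15, CPA4 and PRRG4.

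At the other end, MBOAT1, which attaches oleate to lysophospholipids, read 7.58 and 7.43 with siATM, 9.65 and 9.62 with sip53, and 9.18 and 9.16 with siNC. It was 4.38-fold lower with siATM than with sip53 (log2 difference -2.13, SE 0.07, adjusted p = 4.74e-05). No other called gene differed by as much. PRRG4, a small membrane protein with a Gla domain, read 6.75 and 6.71 with siATM, 8.33 and 8.37 with sip53, and 8.35 and 8.29 with siNC, so siATM alone set it apart (3.08-fold). QNG1, which salvages the tRNA base queuine, and APMAP, an adipocyte membrane protein, were placed like PRRG4 and differed by -1.30 and -1.21. Also among the 15 lowest were 3 genes that handle RNA. POLR3G, a subunit of RNA polymerase III, read 7.05 and 6.77 with siATM, 8.15 and 8.19 with sip53, and 7.50 and 7.57 with siNC. EIF5A2, an isoform of a translation factor, read 8.74 and 8.63, 9.96 and 9.89, and 9.67 and 9.67 in that order. PUDP, a phosphatase of modified uridine, differed by -1.29. POLR3GL, the paralog that takes the place of POLR3G in the polymerase, went the other way, at 6.75 and 6.48 with siATM, 5.85 and 6.15 with sip53, and 6.28 and 6.26 with siNC (0.62, adjusted p = 0.00753). Its sip53 values lie around the level for testing.

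Some of the lowest genes were placed mainly by higher values with sip53. SYT2, a calcium sensor of vesicle release, read 7.27 and 7.21 with siATM, 8.42 and 8.47 with sip53, and 7.59 and 7.49 with siNC. ACER2, a ceramidase of the Golgi, read 6.65 and 6.43 with siATM, 7.60 and 7.88 with sip53, and 6.81 and 6.83 with siNC. For ACER2 the siATM value did not differ from siNC by the test (-0.28, adjusted p = 0.097), while sip53 differed by 0.92. Its relative ACER3 (-0.55) was placed by siATM. Of the 20 tested sphingolipid genes of 21 named, 6 (30.0%) were called lower and 4 (20.0%) higher. The higher count was 2 without sip53 replicate 1, siATM replicate 2 or sip53 replicate 2. UGCG, which makes glucosylceramide, was among the higher genes (0.50) and was set apart by sip53.

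Opposite moves against siNC were called where a gene was higher than siNC with 1 siRNA, lower with the other and different between the 2. Both contrasts use the same siNC arrays. The rule found 139 genes (1.31%), of which 61 were higher with siATM and lower with sip53 and 78 the reverse. These counts fell to 6 and 10 without siNC replicate 1, to 6 and 11 without siNC replicate 2, to 10 and 13 or 9 and 9 without replicate 1 or 2 of sip53, and the first fell to 39 without siATM replicate 1. In all 6 such fits 10 genes kept the pattern. Higher with siATM and lower with sip53 were CD14, CD22, PLLP, CLDN7 and MIR612, and the reverse held for CCNE2, MNS1, TLR3, GPR137C and SERTAD4 (SERTAD4 is named for its place among these 10, after its values were seen).

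PLLP, a membrane protein of myelin and epithelia, read 10.45 and 10.41 with siATM, 9.16 and 9.15 with sip53, and 9.73 and 9.67 with siNC. CLDN7, a claudin of epithelial junctions, read 10.57 and 10.62 with siATM, 9.44 and 9.50 with sip53, and 10.01 and 9.99 with siNC. Against siNC, PLLP moved by 0.73 with siATM and -0.55 with sip53, and CLDN7 by 0.59 and -0.53, each step far wider than the gap within a group. TLR3, a sensor of viral RNA, read 8.13 and 8.02 with siATM, 9.13 and 9.11 with sip53, and 8.52 and 8.57 with siNC. MNS1, a structural protein of meiosis and cilia, read 7.99 and 7.92 with siATM, 9.23 and 9.10 with sip53, and 8.59 and 8.49 with siNC. Other genes with the largest opposite moves were OXCT1, the enzyme that lets cells burn ketone bodies (-0.50 with siATM, 0.53 with sip53), and the transcription factor KLF7 (0.41 with siATM, -0.43 with sip53). OXCT1 kept the pattern without any array but sip53 replicate 2. The pattern of KLF7 was lost without siNC replicate 2 or either sip53 array, and that of DEPP1 (0.71 and -0.40) without either siNC array or sip53 replicate 1. LINC01963, a long noncoding RNA, moved by 0.61 and -0.56, with sip53 arrays far apart at 7.37 and 6.95, and kept the pattern in 1 of the 6 fits, the one without sip53 replicate 1.

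Among inflammatory signalling genes, ICAM1 and NFKB2 stood out through lower values with sip53. Of 23 named genes of NF-kB signalling 21 passed the filter, and 5 (23.8%) were called higher with siATM and 1 (4.76%) lower. The median difference was 0.07. Relative to siNC 6 of the 21 were called lower with sip53 and 4 with siATM, beside 544 and 1383 of all 10640 tested genes. ICAM1, an adhesion molecule that NF-kB induces, read 11.11 and 11.02 with siATM, 10.37 and 10.39 with sip53, and 11.14 and 11.24 with siNC (1.61-fold higher with siATM than with sip53, adjusted p = 0.000505). NFKB2, a subunit of NF-kB, read 9.43 and 9.41 with siATM, 8.98 and 8.97 with sip53, and 9.49 and 9.33 with siNC. In both genes the siATM arrays lay with or near the siNC arrays and the sip53 arrays below. REL (0.36) lost its call without sip53 replicate 1 (adjusted p = 0.0544) and IRAK2 (0.36) without sip53 replicate 2 (adjusted p = 0.0696). IRAK1 (-0.33), the gene called lower, lost its call without sip53 replicate 2, and 2 genes were called lower without siNC replicate 1, siATM replicate 1 or siNC replicate 2. RELA, the main partner in NF-kB, differed by 0.02 and NFKB1 by 0.19, neither of them called.

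Chemokines and cytokines had 23 of 30 named genes above the filter, with 6 (26.1%) called higher and 3 (13.0%) lower with siATM. CXCL8, a chemokine that attracts neutrophils, read 6.12 and 6.05 with siATM, 5.68 and 5.54 with sip53, and 8.11 and 7.98 with siNC. Against siNC it fell by 1.96 with siATM and by 2.44 with sip53. CXCL10, which attracts T cells, read 6.99 and 7.0 with siATM, 6.37 and 6.44 with sip53, and 7.74 and 7.36 with siNC. CXCL8 passed the filter only through the siNC arrays, and its siATM and sip53 values lie around the level set for testing, so no fold between them is given. CSF1, the growth factor of macrophages, read 11.06 and 11.01, 10.61 and 10.53, and 10.84 and 10.80 in the same order, called on opposite sides of siNC but in none of the fits that left out 1 array. IL11 was lower with siATM (-0.66), at 7.24 and 7.24 against 7.99 and 7.82 with sip53 and 7.79 and 7.84 with siNC. The count of genes higher was 3 without sip53 replicate 1.

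**Figure D4:**
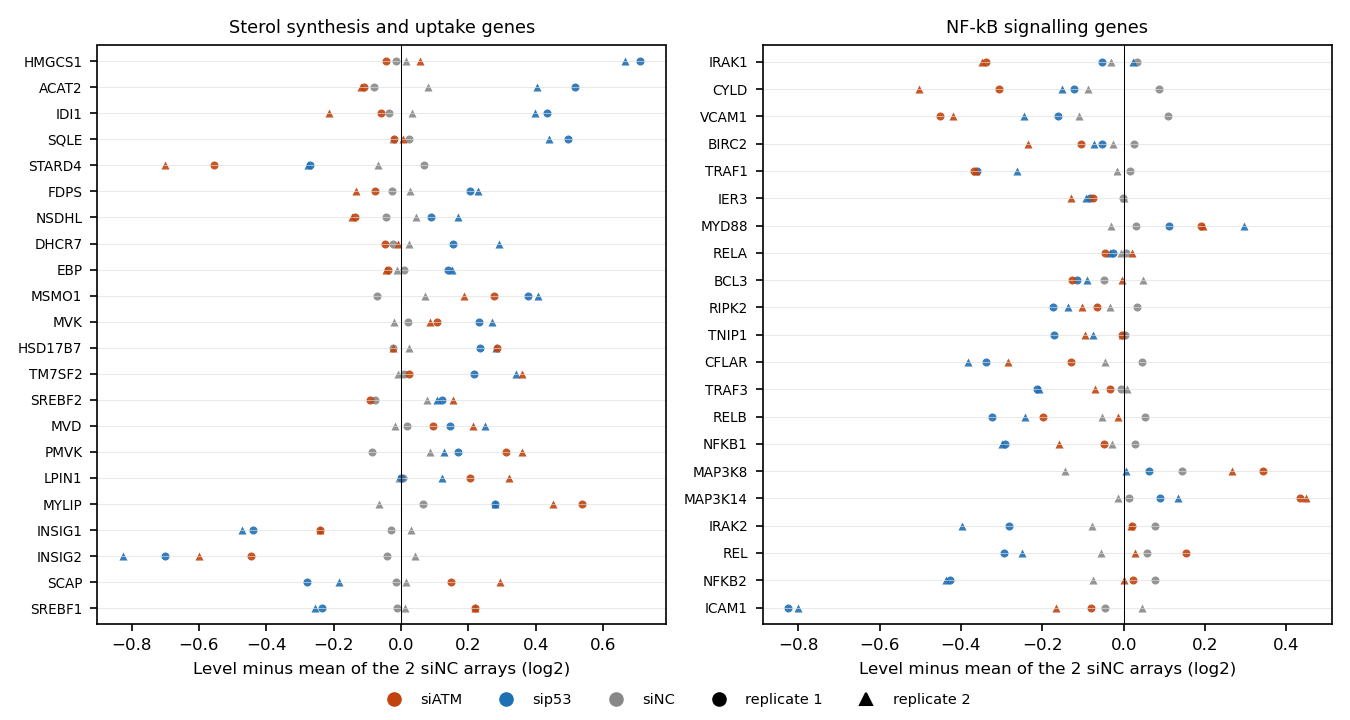
Level on each array minus the mean of the 2 siNC arrays (horizontal axis, log2) for the 22 tested genes of sterol synthesis and its control (left) and the 21 of NF-kB signalling (right). Colours mark the siRNA and shapes the replicate. In HMGCS1, ACAT2, IDI1 and SQLE the sip53 points lie to the right of both other groups, and in ICAM1 and NFKB2 to the left.

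Several enzymes of cholesterol synthesis were higher with sip53 than with both other siRNAs. All 22 named genes of sterol synthesis and its control passed the filter. With siATM 9 (40.9%) were called lower than with sip53 and 4 (18.2%) higher, and the median difference was -0.14. Relative to siNC the median was 0.02 with siATM and 0.21 with sip53. HMGCS1, which makes HMG-CoA for the mevalonate pathway, read 9.10 and 9.20 with siATM, 9.85 and 9.81 with sip53, and 9.13 and 9.16 with siNC (1.6-fold, adjusted p = 0.000474). ACAT2, which supplies its substrate, read 8.79 and 8.78 with siATM, 9.41 and 9.30 with sip53, and 8.82 and 8.98 with siNC. IDI1, a later enzyme of the mevalonate pathway, differed by -0.55 and SQLE, which makes squalene epoxide, by -0.47. These 4 were the only genes of the 9 that were also called between sip53 and siNC, and in them the siATM arrays lay near the siNC level. In the whole list of 22 genes 7 were called higher and 3 lower with sip53 than with siNC, beside 582 and 544 of all 10640 tested genes. None of the 7 promoters found for the 9 lower genes held the SRE-type letters TCACNCCAC (either strand), beside 1.06% of tested genes found and 1.13% of all promoters in the table. With letters this rare, 7 promoters are too few for their absence to tell anything about control of these genes.

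The regulators of the pathway did not follow its enzymes. SREBF1, which encodes a transcription factor for lipid genes, read 9.35 and 9.34 with siATM, 8.89 and 8.87 with sip53, and 9.11 and 9.14 with siNC, higher with siATM (0.46). SCAP, the escort of that factor, was also higher (0.45). SREBF2, the related factor that acts mainly on sterol genes, differed by -0.08 and was not called. INSIG1 (0.22) and MYLIP (0.22), which restrain sterol synthesis and uptake, were higher as well, but INSIG1 lost its call without any siATM or sip53 array (adjusted p up to 0.135) and MYLIP whichever array was left out (up to 0.168). The count of genes lower was 5 without siATM replicate 2 or sip53 replicate 2, and the count of genes higher was 2 without siATM replicate 1, sip53 replicate 1 or sip53 replicate 2.

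Other lipid genes differed one by one rather than as lists. In fatty acid synthesis and remodelling, 31 of 35 named genes passed the filter and 7 (22.6%) were called in each direction, with 3 higher without sip53 replicate 2. MBOAT1 was the lowest of them, and LPGAT1, another lysophospholipid acyltransferase, was among the highest. LPGAT1 read 9.60 and 9.59 with siATM, 8.81 and 8.90 with sip53, and 9.96 and 9.88 with siNC, below siNC with both siRNAs and lowest with sip53. In fatty acid oxidation and ketone use, 3 of 13 genes (23.1%) were called in each direction. PPARA, the nuclear receptor that induces fatty acid oxidation, read 8.65 and 8.69 with siATM, 7.98 and 8.13 with sip53, and 8.12 and 8.07 with siNC. CPT1A, the entry enzyme of fatty acids into mitochondria, was higher with siATM (0.39) and CPT1C, its brain form, lower (-0.45).

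Growth factor receptors and signalling genes showed calls in both directions. Of 62 named receptor tyrosine kinases and ligands 42 passed the filter, 14 (33.3%) were called higher with siATM and 9 (21.4%) lower. KITLG, the ligand of KIT, read 9.26 and 9.23 with siATM, 8.22 and 8.26 with sip53, and 7.80 and 7.93 with siNC (2.01-fold, adjusted p = 0.000231), higher than siNC with both siRNAs. DDR1, a collagen receptor (0.63), and PROS1, a ligand of the TAM receptors (0.65), were higher, while MERTK, a TAM receptor, was lower (-0.69). VEGFB (0.58) and VEGFA (-0.58), growth factors of 1 family, went in opposite directions. VEGFA read 9.90 and 9.89 with siATM, 10.44 and 10.52 with sip53, and 10.28 and 10.27 with siNC. EGFR and AXL, the bright receptors of this line, differed by 0.14 and -0.12 and were not called. The count of genes higher was 9 without sip53 replicate 1, siATM replicate 2 or sip53 replicate 2.

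Immediate-early genes and brakes on MAP kinase signalling had 45 members above the filter, of which 13 (28.9%) were called higher with siATM and 6 (13.3%) lower. The lower count was 3 without either sip53 array. DUSP1, a phosphatase that switches MAP kinases off, read 10.15 and 10.30 with siATM, 9.32 and 9.43 with sip53, and 9.60 and 9.61 with siNC (1.8-fold, adjusted p = 0.000385). JUNB, a subunit of the factor AP-1, read 9.90 and 9.95, 9.19 and 9.19, and 9.46 and 9.49 in that order and was called on both sides of siNC, though not without either siNC array or either sip53 array. TRIB1, a pseudokinase, differed by 0.67 and ETV4, an ETS factor, by -0.76. FOS and EGR1 differed by 0.13 and 0.07 and were not called.

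In the TGF-beta and BMP list 37 of 38 named genes passed the filter, 9 (24.3%) were called higher with siATM and 5 (13.5%) lower. CHRDL1, a secreted BMP antagonist, read 6.03 and 5.97 with siATM, 7.10 and 7.13 with sip53, and 7.63 and 7.67 with siNC (2.16-fold, adjusted p = 9.77e-05), below siNC with both siRNAs. Its siATM values lie at about the level for testing. GDF15, a stress-induced cytokine of this family, read 10.59 and 10.67 with siATM, 9.71 and 9.74 with sip53, and 10.36 and 10.47 with siNC. LTBP1, which stores TGF-beta in the matrix, was higher with siATM (0.71). The count of lower genes was 3 without either sip53 array and 2 without siATM replicate 2. Counts in the Notch and Wnt lists were near or below those over all tested genes (14.0% higher, 16.3% lower). Among 33 tested Notch genes of 36 named, 4 were called higher (12.1%) and 2 lower (6.06%), led by the ligand JAG2 (0.70), and 1 was lower without either sip53 array. In the Wnt list 35 of 45 named genes passed the filter, 5 were called higher (14.3%), led by the receptor LGR4 (0.78), and 6 lower (17.1%), led by the receptor FZD3 (-0.95). These counts were 3 and 3 without replicate 1 of sip53, and the lower was 3 without its replicate 2. In the list of the Hippo pathway and its targets 34 of 36 named genes passed the filter. With siATM 9 (26.5%) were called higher and 5 (14.7%) lower, and these counts were 5 and 2 without either sip53 array. For YAP1, the effector of the Hippo pathway, sip53 stood apart, at 9.82 and 9.90 against 10.44 and 10.33 with siATM and 10.57 and 10.47 with siNC.

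GDF15 is also a known p53 target, yet p53 targets as a list did not separate the 2 siRNAs. Of 28 named targets 26 passed the filter, 5 (19.2%) were called higher with siATM and 4 (15.4%) lower, and the median difference was 0.02. After GDF15 (0.91) the highest were the semaphorin receptor PLXNB2 (0.45) and the stress sensor SESN2 (0.39). TP53I3 (-0.36) was the lowest and lost its call without sip53 replicate 2 (adjusted p = 0.0587). BAX, a trigger of cell death, and TIGAR, a brake on glycolysis, differed by -0.09 and -0.07 and were not called. The count of lower genes was 1 without sip53 replicate 1, siATM replicate 2 or sip53 replicate 2. APAF1, the scaffold that activates caspases, was lower with siATM (7.47 and 7.32 against 8.15 and 8.21 with sip53 and 8.48 and 8.38 with siNC, 1.72-fold, adjusted p = 0.000532).

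Antioxidant and lysosomal genes leaned towards higher values with siATM. Of 31 named NRF2 targets and redox genes 30 passed the filter, 9 (30.0%) were called higher with siATM and none lower, with a median difference of 0.13. NFE2L2, which encodes NRF2, read 9.62 and 9.55 with siATM, 9.20 and 9.28 with sip53, and 9.35 and 9.37 with siNC (1.27-fold, adjusted p = 0.00534). TXNRD1, thioredoxin reductase (0.38), TALDO1, of the pentose phosphate pathway (0.41), and MGST2, a glutathione transferase (0.36), were higher, while HMOX1, a classical NRF2 target, differed by -0.22 and was not called. The count was 4 without either sip53 array, and 1 gene was called lower without either siATM array. Of 51 named lysosome and autophagy genes 50 passed the filter, 14 were called higher and 6 lower. SGSH, a lysosomal sulfatase, read 10.50 and 10.50 with siATM, 9.72 and 9.66 with sip53, and 9.97 and 10.02 with siNC (1.76-fold, adjusted p = 0.000275). TFEB (0.38) and TFE3 (0.40), transcription factors of lysosomal genes, were higher. The higher count was 7 and 8 without replicates 1 and 2 of sip53, and the lower count was 3 without either siNC array, either sip53 array or siATM replicate 2.

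Metabolic and protein-quality lists had calls in both directions. ADM, a peptide hormone induced by hypoxia, read 7.85 and 7.83 with siATM, 8.69 and 8.77 with sip53, and 8.0 and 7.94 with siNC (1.86-fold, adjusted p = 0.000253), and CA12, a carbonic anhydrase, went the other way (0.74). PSAT1 (-0.64) and PSPH (-0.42), enzymes of serine synthesis, and CTH (-0.60), of cysteine synthesis, were lower with siATM. CREB3L3, a membrane-bound factor, read 8.36 and 8.62 with siATM, 7.59 and 7.55 with sip53, and 7.23 and 7.42 with siNC, and SEL1L, of protein disposal from the endoplasmic reticulum, differed by 0.44. Of 52 tested cytosolic ribosomal protein genes of 53 named, 8 were called higher with siATM (15.4%, near the 14.0% of all tested genes) and 1, RPL39L (-0.64), lower, with a median difference of 0.10. The 8 fell to 5 without siATM replicate 1, and to 2 and 3 without replicates 1 and 2 of sip53. Of 73 mitochondrial ribosomal genes 9 were called lower (12.3%, below the 16.3% of all tested genes), led by MRPS10 (-0.66), and 3 higher, with a median difference of -0.02. Of genes lower, 4 were called without sip53 replicate 1, 5 without siATM replicate 2 and 3 without sip53 replicate 2, and the 3 higher fell to 1 or none without any array but siATM replicate 1.

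Matrix and adhesion genes added single large differences. DPP4, a surface peptidase, read 8.45 and 8.49 with siATM, 7.51 and 7.62 with sip53, and 7.27 and 7.04 with siNC (1.87-fold, adjusted p = 0.000564), and MMP15, a membrane-bound matrix protease, differed by 0.77. Of 39 tested proteases and inhibitors of 46 named, 11 (28.2%) were called higher with siATM and 6 (15.4%) lower. These counts became 7 and 3 without replicate 1 of sip53 and 7 and 2 without its replicate 2. In the mesenchymal list 30 of 37 named genes passed the filter, 9 (30.0%) were called higher with siATM and 1 (3.33%) lower. The lower gene, SNAI2 (-0.27), read 12.38 and 12.43 with siATM, 12.62 and 12.72 with sip53, and 12.34 and 12.35 with siNC. It was not called without siATM replicate 1 or sip53 replicate 2. FN1, fibronectin, read 12.86 and 12.88 with siATM, 12.46 and 12.42 with sip53, and 12.44 and 12.44 with siNC, a 1.35-fold difference at a high level (adjusted p = 0.00139). Among guidance genes 10 of 35 tested of 47 named were called higher (28.6%), led by the semaphorin receptor PLXNB3 (0.88) and the repellent SLIT2 (0.68). Lower were 4 (11.4%), and 2 without sip53 replicate 1. PKP2, of desmosomes, was higher with siATM (0.56) and PPL, periplakin, lower (-0.72), beside the claudin CLDN7.

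**Figure D5:**
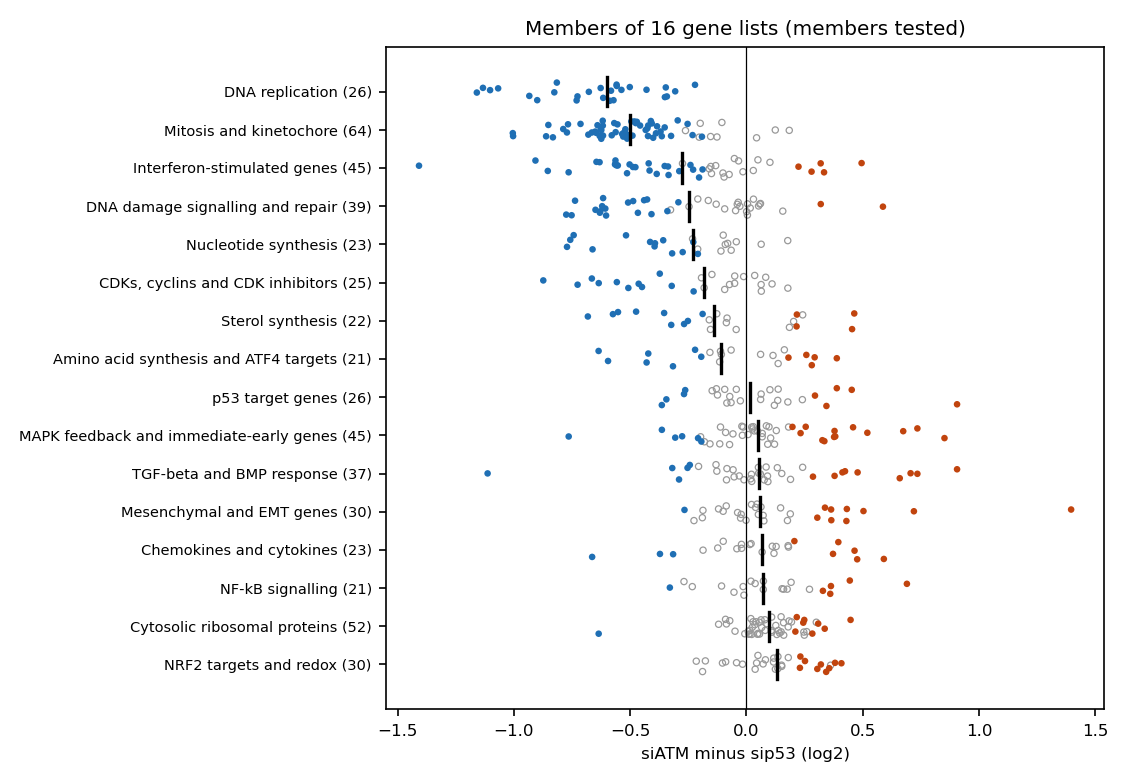
Difference between siATM and sip53 (horizontal axis, log2) for every tested member of 16 gene lists, with the number tested in brackets. Filled points were called, open points were not, and black bars are list medians. Replication genes have the lowest median, -0.60, and NRF2 targets the highest of those shown, 0.13.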

How the data were processed

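Total RNA of 6 MDA-MB-231 samples was measured on Affymetrix Human Gene 2.0 ST arrays, with 2 arrays each for siATM, sip53 and siNC. The log2 values per probe set are those the authors deposited, between 1.33 and 14.2. Background correction, probe summary and normalization are not given in the sources used here, and the arrays have nearly the same distribution, so a change of total RNA cannot be seen. The 2 arrays per group limit the precision.

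Of 53617 probe sets, 16098 carry 1 gene symbol in the platform annotation. Where a gene had several (779 genes), the probe set with the highest mean was kept. Genes with a mean at or above 5.96, the 50th percentile of all probe sets, were tested with limma 3.58.1 in R 4.3.3 (lmFit and eBayes, 3 residual degrees of freedom, 6 arrays in 1 fit), with Benjamini-Hochberg adjustment over all tested genes and a threshold of 0.05. The steps were tested on simulated data. Alternatives covered the filter, scaling, moderation, probe sets, the arrays in the fit, a replicate block and the threshold.

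Named genes were the 15 highest and 15 lowest, leaving out noncoding symbols, from each list with 3 or more calls the 4 most changed called genes, up to 8 opposite movers a direction, and cell type markers. Further members, such as whole complexes, genes that were not called and genes that lost a call, were named after their values were seen. The comparison and the gene lists were chosen with earlier results of these data known, and the motif letters and the promoters printed were chosen after the gene values were seen. Promoters came from RefSeq (GRCh38.p14), 1 per symbol, and matched 8223 of the 10640 tested genes. How far each siRNA lowered its target is not reported here.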

Additional observations from a re-analysis of the deposited data

How the results depend on the processing

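At an adjusted p below 0.01, 1724 genes differed between siATM and sip53, 756 higher and 968 lower with siATM. Leaving out 1 array gave 1847 to 2856 genes, 808 to 1306 higher and 1034 to 1606 lower. Opposite moves against siNC were more sensitive. The genes higher with siATM and lower with sip53 numbered 10 without the filter on dim genes, 111 with the filter at the 70th percentile, 120 with trend and robust moderation, 5 at an adjusted p below 0.01, and 697 when only the order of the 6 arrays was asked for. In the reverse direction the counts were 25, 136, 150, 11 and 904. Leaving out 1 array gave 6 to 44 in the first direction and 9 to 91 in the other. The counts of replication, mitotic and interferon-stimulated genes lower with siATM stayed within 1.5 times their main value under all alternatives run. Of the 192 genes picked as the highest, lowest, opposite or most changed of a list, none changed direction under any alternative that tested it. Genes named beyond these were not part of that check.

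The replicate numbers are shared by the groups, and deviations of same-numbered arrays correlated at 0.117, 0.0363 and 0.0277 between pairs of groups. Each value rests on 1 difference between the 2 arrays of each group. Whether a number pairs samples cannot be told from them. Centring each array turned the balance of calls to 1669 higher and 1558 lower. With a replicate block 3218 genes were called, 1475 higher and 1743 lower, and opposite moves numbered 51 and 71. With 2 arrays a group, small differences are open to 1 array: 1475 of the 3219 calls held whichever array was left out, and so did 29 of the 30 coding genes that are the 15 highest and 15 lowest.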

Other observations

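Of the 37519 probe sets without a single gene symbol, 15378 passed the same filter, and 1032 were called higher and 924 lower with siATM than with sip53 (limma, Benjamini-Hochberg adjusted p below 0.05). In the same fit 11431 probe sets with a single symbol were tested, with 1023 called higher and 1211 lower. Among the 4244 named genes left out as dim, 156 were called when no filter was used. The ZNF zinc finger genes, with 415 of 491 named members above the filter, had 55 higher (13.3%) and 38 lower (9.16%) members and a median difference of 0.00, beside 14.0% and 16.3% of all tested genes, so neither count is above that of all tested genes. These counts fell to 34 and 19 without sip53 replicate 1 and to 35 and 21 without sip53 replicate 2. Among genes of RNA polymerase, splicing and hnRNPs, 13 of 52 were lower and 6 higher with siATM, 7 lower without sip53 replicate 2. Orphan and adhesion receptors coupled to G proteins differed in both directions, with GPR55 at 0.84, ADGRG1 at 0.80 and GPR3 at -1.11.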
